A study of Arabidopsis thaliana with 11 samples.

Results

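The transcript response of the arf2 mutant to brassinazole was read from 5 of the 11 arrays in the series, chosen by their titles: 2 of arf2 on BRZ and 3 of arf2 on mock. The arf2 plants are mutated in ARF2, which encodes an auxin response factor. Their allele is not given in the sources used here. The treated arf2 seedlings grew in the dark on 0.5 µM brassinazole (BRZ), and the untreated arf2 seedlings grew in the dark on mock medium. All were whole seedlings taken at 4 days of age, so both groups share the mutation, the darkness and the age. Seedlings of Col, the wild type, grown on the same 2 media served to compare the responses, with 3 arrays on BRZ and 3 on mock. The replicates of a group are independent biological ones according to the submitters, who also state that only 2 arrays of arf2 on BRZ passed their quality control. RNA came from whole seedlings, so fewer cells of a type and less RNA per cell cannot be told apart.

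Brassinosteroids are steroid hormones of plants. They bind the receptor kinase BRI1 at the cell surface, the kinase BIN2 is then switched off, and the transcription factors BZR1 and BES1 become active. In dark-grown seedlings this pathway keeps the hypocotyl elongating through genes that loosen and rebuild the cell wall, and it holds back the programme that light would start. BRZ blocks a step of brassinosteroid synthesis, and wild-type seedlings grown on it in the dark stay short. ARF2 is one of the auxin response factors that lower the transcription of their targets. It is known as a substrate of BIN2, and arf2 mutants as less sensitive to BRZ in hypocotyl growth, which makes the mutant's own transcript response to the inhibitor a question of the study.

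The values are gcRMA intensities, a linear measure of the brightness of each ATH1 probe set after background correction and normalization, and log2 was taken before any test. Of 21886 probe sets tested, 12853 name exactly 1 gene, 459 several and 8574 none. The median log2 level was 6.23 and 6.28 on the BRZ arrays and 6.22, 6.22 and 6.09 on the mock arrays of arf2. Arf2 mock array 3 departed from its group together with Col mock array 2 (correlation of their deviations across probe sets 0.60), so results below are also given without arrays where this changes them. A probe set of 25S ribosomal RNA read 33.6 and 63.9 on BRZ, against 263, 193 and 173.5 on mock in arf2 (log2 change -2.15, exact two-sided permutation p 0.1, which is the lowest value possible with 2 and 3 arrays). On the Col arrays this probe set read 97.2, 85.3 and 131 on BRZ, and 95.9, 59.7 and 77.3 on mock. Its part in the results was not tested. The 16 control probe sets for actin, GAPDH and ubiquitin differed by -0.06 to 0.33 on the log2 scale. No probe set is named for ARF2, so its level was not analysed here, and no sequences are shown.

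BRZ changed 1271 of the 21886 probe sets in arf2 (5.81%), with 638 higher (2.92%) and 633 lower (2.89%). A probe set was called when limma's moderated test, fitted over all 11 arrays, gave an adjusted p under 0.05 after Benjamini-Hochberg correction. In each of the 1271 the 2 BRZ arrays lay entirely above or entirely below the 3 mock arrays. With so few arrays a call nearly requires this, so it adds no support. Its share over all probe sets was not counted. The falls were larger than the rises: 207 probe sets fell at least 2-fold (0.946%) and 107 rose at least 2-fold (0.489%), and 32 fell against 10 that rose at least 4-fold. Over all probe sets tested, the median change was 0.001 on the log2 scale. The count rested on both BRZ arrays, since it was 503 without array 1 and 532 without array 2; the single BRZ array then takes its spread from the other groups. It was 769 without arf2 mock array 1, and without arf2 mock array 3 it was 358 higher and 499 lower. Without Col mock array 2 the calls were 986 higher and 841 lower. With equal array medians 476 were higher and 886 lower. That scaling moved the median of all probe sets to -0.08.

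The 15 largest rises among probe sets that name 1 gene were between 3.01-fold and 10.5-fold. AT5G01740 read 1877 and 1604 on BRZ, against 147, 174 and 176 on mock (log2 change 3.40 ± 0.15 SE, limma adjusted p 4.87e-07). AT5G22580 read 2263 and 1756 on BRZ, against 217, 249 and 232 on mock (8.58-fold, 3.101 ± 0.18, adjusted p 2.51e-06). For both genes the lowest BRZ array stood far above every mock array, and the annotation gives no more than a locus. AT5G57785 read 604 and 562 on BRZ, against 80.3, 102 and 94.8 on mock (2.67 ± 0.11, adjusted p 3.2e-07). Its neighbour P1R1 read 483 and 412 on BRZ, against 136, 168 and 136 on mock (1.61 ± 0.13, adjusted p 2.97e-05). These 2 genes lie next to each other on chromosome 5 in the gene table. As the choice of the 15 required, no array of one group reached into the other for either. The remaining rises that carry only a locus were AT5G38980 (5.34-fold), AT3G45160 (3.71-fold), AT5G16030 (3.58-fold), AT5G10770 (3.31-fold), AT3G51400 (3.29-fold), AT3G53250 (3.11-fold) and AT3G29410 (3.07-fold). AT3G29410 read 163 and 106 on BRZ, and the deposited value was 42.8 on all 3 mock arrays. Its fold therefore rests on a repeated mock value, and whether the probe set was above background there is not given in the sources used here.

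**Figure D1:**
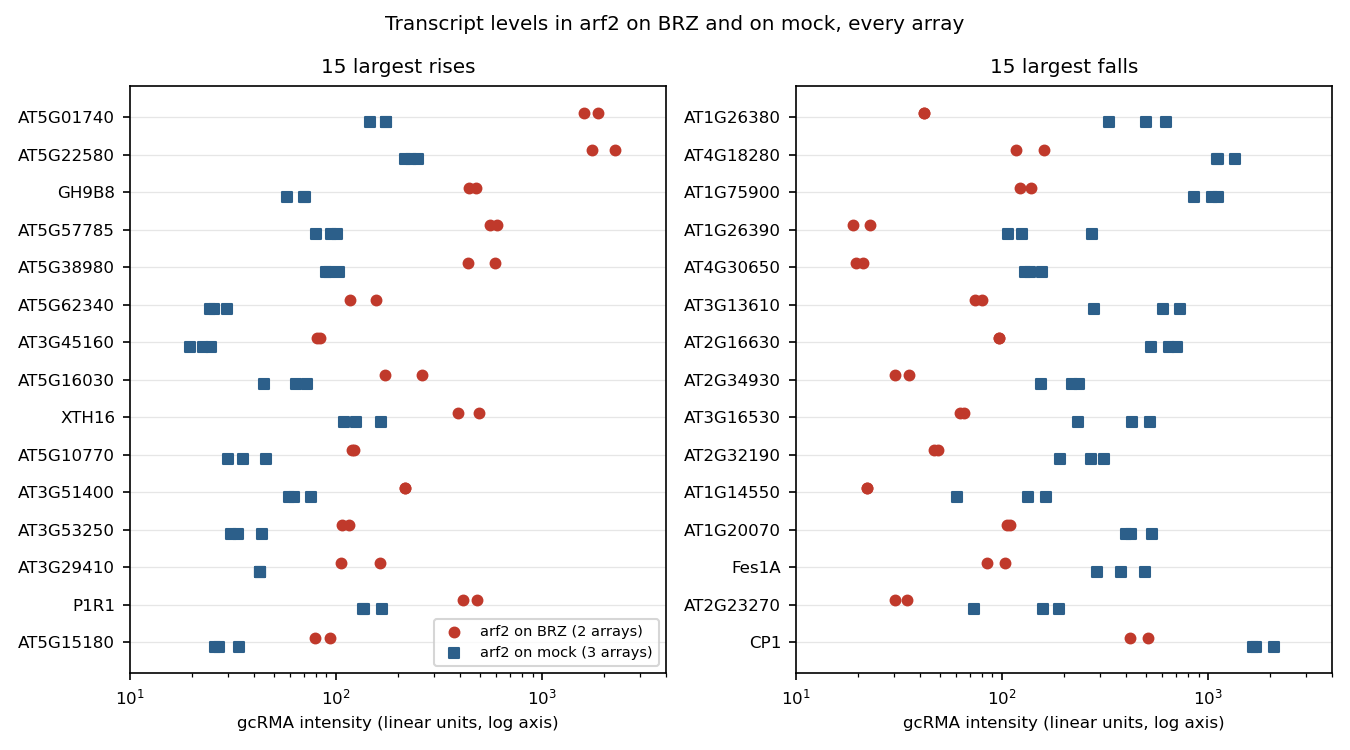
gcRMA intensity (linear units on a log axis) of 30 genes in arf2, the 15 that rose most and the 15 that fell most on BRZ. Circles are the 2 BRZ arrays and squares the 3 mock arrays. Only genes with the 2 groups apart were eligible, so that separation was set by the choice.

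The 15 largest falls were between 3.91-fold and 11.3-fold. AT1G26380, an oxidase of the berberine bridge family, had the largest by the deposited values. It read 41.7 on both BRZ arrays, against 502, 332 and 623 on mock (log2 change -3.50 ± 0.26, adjusted p 2.21e-05). Its deposited value was the same on both BRZ arrays, as for 2.21% of the probe sets tested, so its fold rests on a single repeated value that may not be an independent measurement on each array. Lower values, down to 25.3, were deposited for it on Col arrays. AT4G18280 read 117 and 160 on BRZ, against 1110, 1349 and 1123 on mock (-3.12 ± 0.18, adjusted p 2.51e-06). AT2G16630 read 96.6 and 96.7 on BRZ, against 650, 705 and 530 on mock (-2.69 ± 0.15, adjusted p 2.3e-06). In the last gene the difference between the groups was many times the spread inside either. AT4G30650 read 19.6 and 21.2 on BRZ, against 137, 130 and 157 on mock. Its BRZ values lie below the lower quartile of the arf2 arrays, which was between 21.7 and 24.2. The lectin-like AT3G16530 read 65.5 and 62.3 on BRZ, against 234.1, 523 and 427 on mock (-2.55 ± 0.29, adjusted p 0.000352). Fes1A, a partner of the chaperone Hsp70, read 84.9 and 104 on BRZ, against 496, 288 and 379 on mock (-2.01 ± 0.21, adjusted p 0.000157). CP1, a cysteine proteinase, read 417 and 514 on BRZ, against 2101, 1705 and 1650 on mock (-1.97 ± 0.15, adjusted p 2.97e-05). AT2G34930 (6.07-fold), AT2G32190 (5.3-fold), AT1G20070 (4.15-fold) and AT2G23270 (4.02-fold) fell as well and are known here by locus alone. The call of AT2G23270 was lost without BRZ array 1 of arf2 (adjusted p 0.0729) or array 2 (adjusted p 0.108). It was the only 1 of the 30 genes with a call lost under any of the 22 alternatives that kept the threshold.

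The counts of the gene families below stand against 2.92% higher and 2.89% lower over all probe sets. Some lists were set up after the values were seen, so their counts are only a description. They are the invertase or pectin methylesterase inhibitors, lipid transfer proteins, GDSL lipases, berberine bridge enzymes, peroxidases, small heat shock proteins and glutaredoxins. Wall enzymes that cut or rejoin glucan and xyloglucan chains were among the rises, and no measured member of those families fell. Of 15 measured endoglucanases, which cut glucan chains, 3 rose. GH9B8 read 476 and 444 on BRZ, against 71.1, 70.05 and 58.0 on mock (6.95-fold, 2.80 ± 0.17, adjusted p 4.61e-06). GH9C2 read 2538 and 2148 on BRZ, against 1356, 1390 and 1326 on mock (0.78 ± 0.10, adjusted p 0.000724). The third, GH9B7, rose by 0.51 ± 0.10 (adjusted p 0.0103), a call lost without BRZ array 1 of arf2 (adjusted p 0.131) and with equal array medians (adjusted p 0.064). The other 12 did not pass, and the list's median log2 change was -0.01, near that of all probe sets. Of 10 measured xyloglucan endotransglucosylases, which cut and rejoin xyloglucan, 2 rose and 8 did not pass (median 0.06). XTH16 read 392.04 and 496 on BRZ, against 125, 165 and 109 on mock (1.75 ± 0.22, adjusted p 0.000567). XTH32 read 146 and 151 on BRZ, against 41.3, 66.8 and 61.1 on mock (1.42 ± 0.22, adjusted p 0.00241). Both rose on BRZ in Col by almost the same amount (1.75 and 1.40).

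Expansins loosen the wall without cutting it. Of 19 measured, 2 fell, none rose and 17 did not pass (median -0.11). EXLB1 read 101 and 75.9 on BRZ, against 187, 213 and 233 on mock (-1.26 ± 0.14, adjusted p 3e-04). EXPA4 read 252 and 262 on BRZ, against 375, 365 and 401 on mock (-0.56 ± 0.10, adjusted p 0.00653), a call lost without BRZ array 1 of arf2 (adjusted p 0.0751). The fall of EXPA4 was smaller than its fall of 1.36 in Col (interaction, the effect of arf2 less the effect of Col, 0.80 ± 0.13, adjusted p 0.0181). Without arf2 BRZ array 1 or 2 the interaction had an adjusted p of 0.0927 or 0.0936, without arf2 mock array 1 one of 0.055, and without Col BRZ array 2 or 3 one of 0.064 or 0.0666. None of 9 measured cellulose synthases and relatives passed (median 0.31), with ATCSLC08 at 0.79 ± 0.21 (adjusted p 0.0519).

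Pectin is trimmed by pectin methylesterases, which are held in check by inhibitor proteins. PME61, a pectin methylesterase, read 121 and 126 on BRZ, against 78.3, 66.5 and 77.4 on mock (0.75 ± 0.11, adjusted p 0.00193). In Col the same gene fell, at a mean of 70.3 on BRZ against 217 on mock (-1.63, adjusted p 4e-06), and the interaction of 2.37 ± 0.15 (adjusted p 3.56e-05) kept its call in all alternatives. PMEPCRF, another member, read 86.0 and 83.2 on BRZ, against 49.7, 50.03 and 50.2 on mock (0.76 ± 0.14, adjusted p 0.00816), a call lost without BRZ array 1 of arf2 (adjusted p 0.0821) or 2 (adjusted p 0.0654). The other 2 of the 4 measured members did not pass. Of 18 measured genes of the invertase and pectin methylesterase inhibitor family, 3 rose, 3 fell and 12 did not pass (median -0.01). AT5G62340 read 117 and 157 on BRZ, against 25.7, 24.5 and 29.7 on mock (2.35 ± 0.14, adjusted p 2.85e-06), and AT1G62770 rose by 1.13 ± 0.11 (adjusted p 0.000111). AT2G01610 fell by 1.09 ± 0.16 (adjusted p 0.00199). The family's count was 2 higher and 1 lower without either arf2 BRZ array, arf2 mock array 1 or 2 or Col BRZ array 1. It was 2 and 2 without arf2 mock array 3 or Col BRZ array 2 or 3, and 2 and 3 without Col mock array 1.

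Lipid transfer proteins, small secreted proteins that carry lipids and coat surfaces, rose in 4 of 29 measured cases and fell in none, with 25 not passing (median -0.02). AT3G53980 read 651 and 415 on BRZ, against 180, 170 and 183 on mock (1.55 ± 0.19, adjusted p 0.000465). AT4G33550 read 455 and 401 on BRZ, against 150, 167 and 156 on mock (1.44 ± 0.11, adjusted p 2.21e-05). AT1G48750 read 1336 and 1113 on BRZ, against 474, 464 and 449 on mock (1.40 ± 0.13, adjusted p 6.68e-05). The mock arrays of these 3 genes agreed closely with each other, and both BRZ arrays lay above them. AT1G62510 rose by 0.99 ± 0.13 (adjusted p 0.000943). The count of 4 was not lower in any of the alternatives that kept the threshold, and was 6 without Col mock array 2. Of these genes AT4G33550 had a different effect in Col (-0.17, interaction 1.61 ± 0.15, adjusted p 0.000406).

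GDSL lipases are a large family of secreted esterases. Of 60 measured, 3 rose (5.0%, near the 2.92% of all probe sets), 5 fell (8.33%, against 2.89%) and 52 did not pass (median -0.05). AT1G75900 read 138 and 122.6 on BRZ, against 1045, 1119 and 853 on mock (7.68-fold lower, -2.94 ± 0.12, adjusted p 3.2e-07). AT2G04570 fell by 1.30 ± 0.12 (adjusted p 6.51e-05) and AT1G28600 by 0.81 ± 0.11 (adjusted p 0.00155). AT2G42990 rose by 0.88 ± 0.12 (adjusted p 0.00123). The family's count was 2 higher and 4 lower without arf2 BRZ array 1 or arf2 mock array 1, and 1 higher and 3 lower without arf2 BRZ array 2. It was 3 and 3 without arf2 mock array 2, and 6 and 6 without Col mock array 2.

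Berberine bridge enzymes, flavin-dependent oxidases of which several act in defence or on wall sugars, included the largest named fall. Of 20 measured, 7 fell, 1 rose and 12 did not pass (median -0.24, against 0.001 for all probe sets). AT1G26390, the neighbour of AT1G26380, read 22.99 and 19.03 on BRZ, against 125, 107 and 272 on mock (-2.88 ± 0.32, adjusted p 0.000271). Its BRZ values are near the lower quartile of the arrays. AT1G30760 read 45.8 and 43.3 on BRZ, against 122.8, 147 and 93.9 on mock (-1.42 ± 0.15, adjusted p 0.000233). AT4G20830, chosen after its values were seen, read 339 and 335 on BRZ, against 545, 579 and 573 on mock (-0.75 ± 0.11, adjusted p 0.00233). In the opposite direction, AT5G44440 read 2110 and 2954 on BRZ, against 1216, 1081 and 1170 on mock (1.11 ± 0.15, adjusted p 0.000979). Leaving out arf2 BRZ array 1 gave 4 falls, and leaving out arf2 BRZ array 2 or arf2 mock array 1 or 3 gave 5. The rise of AT5G44440 stayed called in each of these.

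Class III peroxidases, secreted heme enzymes that cross-link or loosen walls through peroxide, also moved both ways. Of 55 measured, 4 rose (7.27%), 7 fell (12.7%) and 44 did not pass (median -0.04). AT5G39580 read 299 and 276 on BRZ, against 912, 802 and 1085 on mock (-1.69 ± 0.15, adjusted p 6.68e-05). AT1G14550 read 22.04 and 22.1 on BRZ, against 60.6, 134 and 164 on mock (-2.32 ± 0.31, adjusted p 0.00101), again ending near the lower quartile. AT3G21770 fell by 1.13 ± 0.11 (adjusted p 0.000146). AT5G15180 read 93.4 and 79.6 on BRZ, against 27.0, 33.9 and 25.8 on mock (1.59 ± 0.14, adjusted p 5.52e-05). These 4 peroxidases kept their calls in every alternative. The family's count was 1 higher and 4 lower without arf2 BRZ array 1, and 2 higher and 5 lower without array 2. It was 6 and 6 without arf2 mock array 2.

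Of 5 measured genes of phenylpropanoid and coumarin synthesis, which makes wall phenolics and iron-chelating coumarins, 2 fell and 3 did not pass (median -0.32). AT3G13610 (F6'H1 among its synonyms), the hydroxylase that leads into coumarin synthesis, read 79.8 and 74.4 on BRZ, against 604, 278 and 735 on mock (-2.69 ± 0.31, adjusted p 0.000327). CCOAMT, a methyltransferase of this metabolism, read 89.8 and 101 on BRZ, against 306, 333 and 472 on mock (-1.93 ± 0.21, adjusted p 0.000228). Both calls held in all alternatives. In Col, CCOAMT changed by 0.19 (interaction -2.13 ± 0.28, adjusted p 0.0047). AT3G13610 was also the 1 of 5 measured genes of the iron deficiency list that fell, and the other 4 iron genes did not pass. None of 3 measured flavonoid genes passed.

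UDP-glycosyltransferases, which attach sugars to hormones and phenolics, moved downward where they moved. Of 51 measured, 6 fell, none rose and 45 did not pass (median -0.13). UGT84A3, which glucosylates phenolic acids, read 22.9 and 24.1 on BRZ, against 82.2, 60.4 and 81.5 on mock (-1.66 ± 0.18, adjusted p 0.000233). UGT76E11 read 24.97 and 28.6 on BRZ, against 76.8, 57.2 and 74.1 on mock (-1.37 ± 0.21, adjusted p 0.00273). UGT73B1 read 183 and 228 on BRZ, against 476, 458 and 393 on mock (-1.11 ± 0.15, adjusted p 0.00109). The first and second ended near the lower quartile of the arrays and UGT73B1 well above it. In Col, UGT84A3 changed by -0.37 (interaction -1.29 ± 0.24, adjusted p 0.031) and UGT73B1 by -0.11 (interaction -0.99 ± 0.20, adjusted p 0.0476). The interaction of UGT76E11 was not called (adjusted p 0.357). The count was 4 without arf2 BRZ array 1 or arf2 mock array 1 and 3 without arf2 BRZ array 2. Without Col mock array 2 it was 7 lower and 2 higher. Among 22 measured cytochromes P450 only CYP71B6 fell (-0.59 ± 0.15, adjusted p 0.0353). That call was lost without arf2 BRZ array 1 or 2, arf2 mock array 1 or 3 or Col BRZ array 3, or without arf2 mock array 3 and Col mock array 2 together (adjusted p 0.06 to 0.206). Of 14 measured glutathione S-transferases, GSTU25 rose by 1.03 ± 0.21 (adjusted p 0.0143), a call lost without BRZ array 2 of arf2 (adjusted p 0.161) or arf2 mock array 1 (adjusted p 0.0576) and on the arf2 arrays alone (adjusted p 0.0597). Without arf2 BRZ array 2 its change was 0.64. GSTU18 fell by 0.53 ± 0.14 (adjusted p 0.0476), and the other 12 did not pass. The fall of GSTU18 was lost when any single arf2 mock or Col BRZ array, arf2 BRZ array 1 or Col mock array 1 was left out. Without arf2 BRZ array 1 its change was -0.30 (adjusted p 0.445). Trend and robust variances (adjusted p 0.0621) and the arf2 arrays alone (adjusted p 0.0852) ended that call too.

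**Figure D2:**
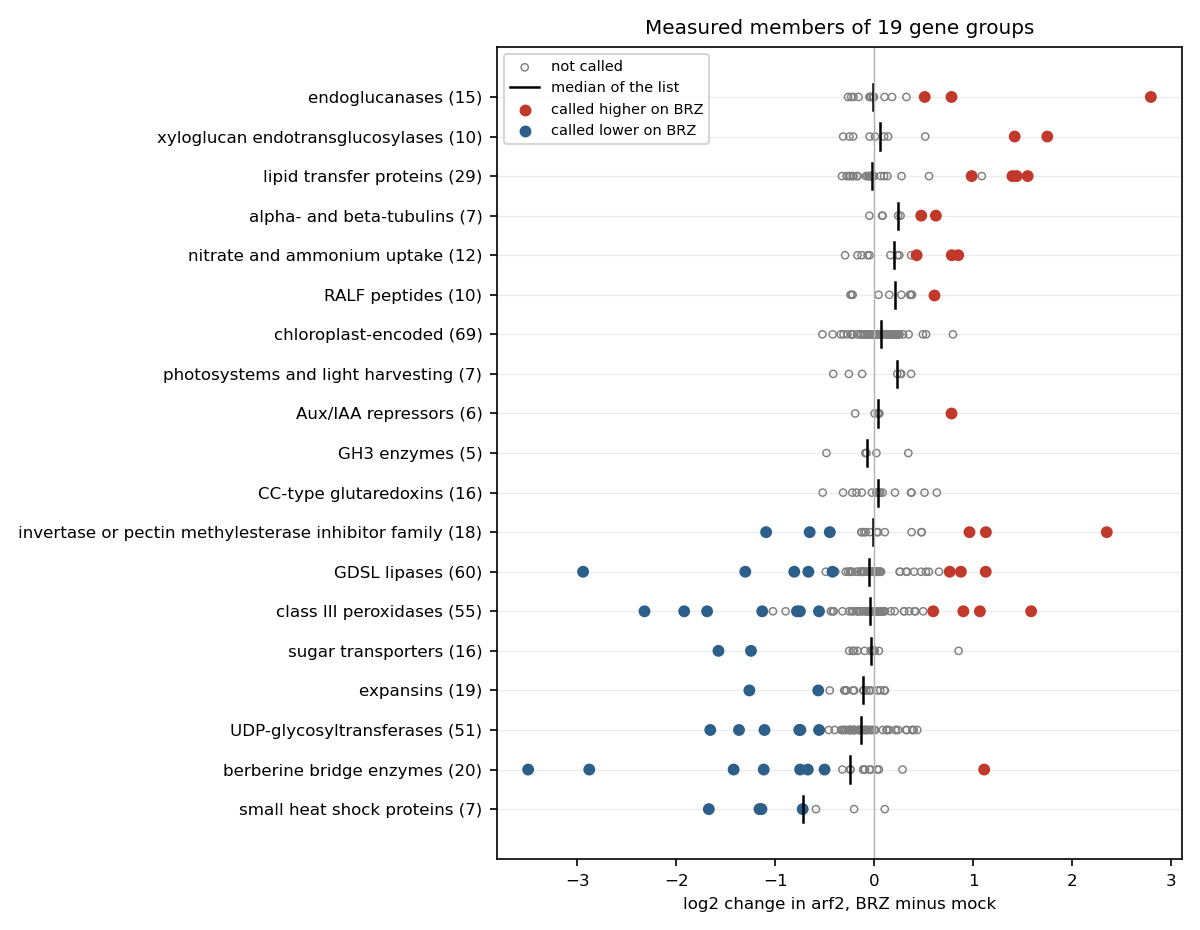
log2 change in arf2 on BRZ minus mock for each measured member of 19 gene groups, with the number measured in brackets. Filled circles are called members (red higher, blue lower), open circles members not called, and vertical bars the median of the group. Endoglucanases, xyloglucan endotransglucosylases and lipid transfer proteins have called members on the right, berberine bridge enzymes and small heat shock proteins mostly on the left.

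Small heat shock proteins, chaperones that bind unfolding proteins, fell in 4 of 7 measured cases and rose in none (median -0.72). AT2G29500 read 58.5 and 97.4 on BRZ, against 293, 190 and 250 on mock (-1.67 ± 0.21, adjusted p 0.000703). AT5G37670 read 46.5 and 56.8 on BRZ, against 130, 117 and 99.5 on mock (-1.16 ± 0.16, adjusted p 0.00134). In both the highest BRZ array lay below the lowest mock array. In Col, AT5G37670 changed by -0.08 (interaction -1.08 ± 0.22, adjusted p 0.0453), the only called interaction of the 7. AT2G29500 changed there by -0.61 (adjusted p of the interaction 0.158). AT5G51440 fell by 1.14 ± 0.22 (adjusted p 0.0113), a call lost without BRZ array 1 of arf2 (adjusted p 0.108) or 2 (adjusted p 0.0816). AT1G53540 fell by 0.72 ± 0.17 (adjusted p 0.0323). Its call was lost without arf2 BRZ array 1, any single arf2 mock array or Col BRZ array 1 (adjusted p 0.0561 to 0.346). Without arf2 BRZ array 1 its change was -0.41, and on the arf2 arrays alone its adjusted p was 0.0782. The count was 2 without arf2 BRZ array 1 and 5 without Col mock array 2. Fes1A, given above, fell as well.

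Of 12 measured genes of late embryogenesis, cold and drought, which protect cells against drying and cold, 3 fell, none rose and 9 did not pass (median -0.17). COR27, a cold-regulated gene, read 307 and 448 on BRZ, against 712, 649 and 673 on mock (-0.87 ± 0.14, adjusted p 0.00335). LTI30, a dehydrin, read 803 and 682 on BRZ, against 1178, 1128 and 1034 on mock (-0.59 ± 0.15, adjusted p 0.0385). Besides COR27, the falls of LTI30 and of the gene with the symbol LEA (-0.70 ± 0.17, adjusted p 0.0351) were fragile. LTI30's call was lost without any single arf2 or Col BRZ array or arf2 mock array (adjusted p 0.0593 to 0.311), and that of LEA without the same arrays apart from arf2 BRZ array 1 (adjusted p 0.0514 to 0.345). Without arf2 BRZ array 2 the change of LEA was -0.37, and on the arf2 arrays alone its adjusted p was 0.082. Of 12 measured defence proteins, PDF1.4, a defensin-like peptide, fell and LCR68, another small cysteine-rich peptide, rose. PDF1.4 read 46.8 and 72.6 on BRZ, against 105, 160 and 119 on mock (-1.11 ± 0.23, adjusted p 0.0143), a call lost without BRZ array 1 of arf2 (adjusted p 0.188). In Col its change was 0.69 (adjusted p 0.0562), with an interaction of -1.80 ± 0.30 (adjusted p 0.0182). LCR68 read 1707 and 1650 on BRZ, against 1182, 1178 and 986 on mock (0.59 ± 0.12, adjusted p 0.0107), a call lost without BRZ array 1 of arf2 (adjusted p 0.103) or 2 (adjusted p 0.0773). Of 7 measured WRKY factors, which act in defence and senescence, WRKY6 (-0.53 ± 0.11, adjusted p 0.0148) and WRKY53 (-0.64 ± 0.17, adjusted p 0.0489) fell. The WRKY6 call was lost without BRZ array 1 of arf2 (adjusted p 0.0564), arf2 BRZ array 2 (adjusted p 0.158) or arf2 mock array 2 (adjusted p 0.0527). The WRKY53 call was lost without any single arf2 BRZ or Col BRZ array, arf2 mock array 1 or 2 or Col mock array 1 or 3 (adjusted p 0.0524 to 0.256). It was also lost with no filter (adjusted p 0.0509), a floor at a log2 value of 4 (adjusted p 0.0552), trend and robust variances (adjusted p 0.0501) and the arf2 arrays alone (adjusted p 0.119).

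The Aux/IAA and GH3 lists gave a single call, and no gene of the SAUR or auxin carrier lists was measured under its name. Of 6 measured Aux/IAA repressors, which block auxin response factors, IAA29 rose and 5 did not pass (median 0.04). IAA29 read 591 and 526 on BRZ, against 364, 341 and 275 on mock (0.78 ± 0.14, adjusted p 0.00692), a call lost without BRZ array 1 of arf2 (adjusted p 0.0911). None of 5 measured GH3 enzymes, which conjugate auxin to amino acids, passed (median -0.08). GH3.3, taken up after its values were seen, read 147 and 119 on BRZ, against 148, 134 and 140 on mock. Its change of -0.09 ± 0.11 in arf2 stood against a rise of 0.93 in Col (interaction -1.02 ± 0.15, adjusted p 0.00893, called in all alternatives). None of 3 measured gibberellin genes passed. BRL1, a receptor related to BRI1 and the 1 measured gene of brassinosteroid signalling, read 23.01 and 22.96 on BRZ, against 23.4, 22.96 and 21.0 on mock, all near the lower quartile. No gene of brassinosteroid synthesis was measured under its name, so the pathway that BRZ blocks was not analysed here.

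Among sugar transporters, 2 SWEET proteins, which let sugars pass membranes, fell out of 16 measured genes, and 14 did not pass (median -0.03). SWEET2 read 194 and 170 on BRZ, against 488, 641 and 505 on mock (-1.57 ± 0.20, adjusted p 0.000672). SWEET17, a fructose transporter of the vacuole, read 47.4 and 41.4 on BRZ, against 105, 124 and 88.5 on mock (-1.24 ± 0.15, adjusted p 0.000537). Both calls held in all alternatives, and both genes fell by a like amount in Col (-1.73 and -1.26). In the nitrate and ammonium uptake list, which takes in the whole peptide and nitrate transporter family, 3 of 12 measured genes rose and none fell (median 0.20). The member with the smallest adjusted p, AT1G68570, read 52.7 and 56.3 on BRZ, against 31.4, 38.2 and 26.3 on mock (0.79 ± 0.15, adjusted p 0.0104). Another, GTR2, is a glucosinolate transporter by its known role (0.43 ± 0.09, adjusted p 0.0192, or 0.0888 with equal array medians), and AT1G33440 was the third (0.85 ± 0.21, adjusted p 0.0403). No member stayed called without arf2 BRZ array 1 or without array 2. Without arf2 mock array 1 or 3 the count was 1, and without arf2 mock array 2 or Col BRZ array 1 or 2 it was 2.

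Other cell functions gave few calls. Of 7 measured tubulins, the subunits of microtubules, TUB6 rose by 0.62 ± 0.12 (adjusted p 0.0081) and TUB5 by 0.48 ± 0.12 (adjusted p 0.04), with 5 not passing. TUB6 read 4279 and 3636 on BRZ, against 2463, 2684 and 2532 on mock, and its call was lost without BRZ array 1 of arf2 (adjusted p 0.116). The TUB5 call was lost without any single arf2 or Col BRZ array or arf2 mock array (adjusted p 0.0636 to 0.314). Equal array medians (adjusted p 0.0656), the arf2 arrays alone (adjusted p 0.0628) and leaving out arf2 mock array 3 with Col mock array 2 (adjusted p 0.07) ended it too. PRL, a subunit of the replication helicase, rose by 0.53 ± 0.11 (adjusted p 0.0116), a call lost without BRZ array 1 of arf2 (adjusted p 0.0723) or 2 (adjusted p 0.114) and with equal array medians (adjusted p 0.0785). None of 69 measured chloroplast-encoded transcripts (median 0.07) and none of 7 measured nuclear photosystem and antenna genes passed in arf2. PRK of the Calvin cycle fell (-0.77 ± 0.17, adjusted p 0.0204), as did the histone gene HON4 (-0.48 ± 0.11, adjusted p 0.03). RALFL31 (0.60 ± 0.13, adjusted p 0.0208) rose. In the starch list APL3 (0.61 ± 0.15, adjusted p 0.0322) and QQS (0.50 ± 0.13, adjusted p 0.0388) rose, 2 of 4 measured. These calls were lost in 5 to 13 of the 22 alternatives. The oil-body protein OLEO3 read 763 and 749 on BRZ, against 428, 459 and 510 on mock (0.70 ± 0.11, adjusted p 0.00323), the 1 riser of 3 measured seed genes. In Col, OLEO3 changed by -0.09 (interaction 0.79 ± 0.15, adjusted p 0.0336). Markers of root hairs were at a low level: EXPA7 and EXPA18 read 18.2 to 22.8 on BRZ, against 18.7 to 32.0 on mock.

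Most of the large rises of arf2 were also called in Col, and a smaller share of the large falls. Of the 107 probe sets that rose at least 2-fold in arf2, 90 (84.1%) were also called higher in Col, where 6.2% of all probe sets were. Of the 207 that fell at least 2-fold, 92 (44.4%) were also called lower in Col, where 2.74% of all probe sets were. The median log2 change of the rises was 1.29 in arf2 and 1.07 in Col, and that of the falls was -1.34 in arf2 and -0.41 in Col. The 2 BRZ effects come from different arrays, but the probe sets were chosen on the arf2 values, which favours larger changes in arf2. Both effects were also tested with the same variance per probe set, fitted over all 11 arrays, so the calls in the 2 genotypes are not independent. The difference between 84.1% and 44.4% was not tested. The interaction was called for 69 of the 207 falls (33.3%) and 11 of the 107 rises (10.3%), against 184 of all probe sets (0.841%). It shares the arf2 arrays with the choice, so these shares are a description. Col called 1956 probe sets in all (8.94%).

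**Figure D3:**
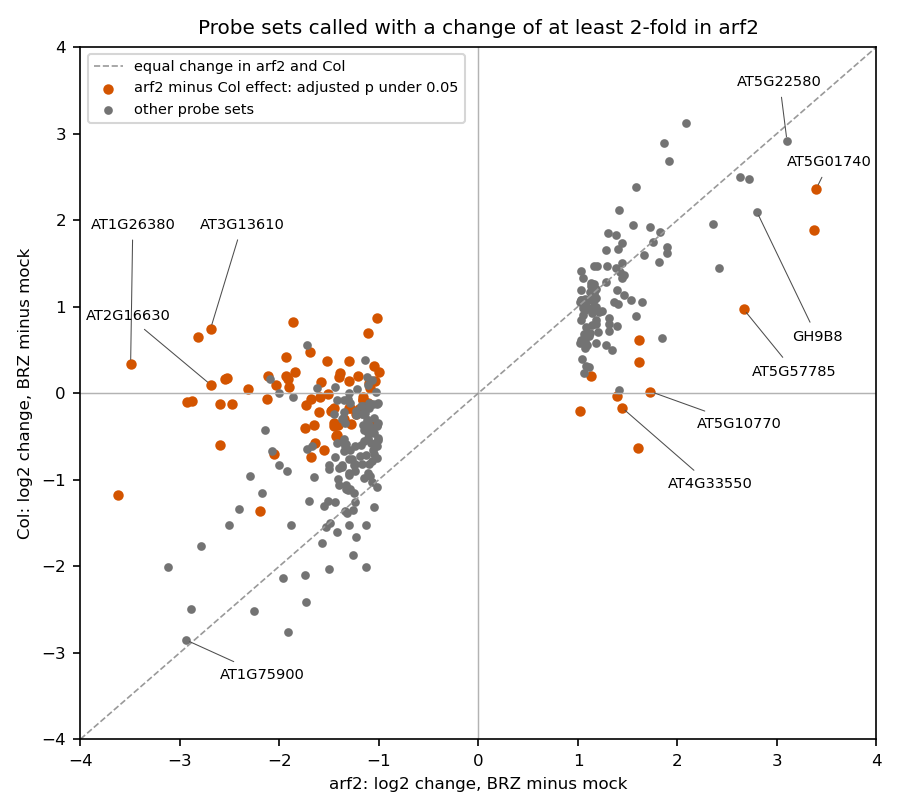
log2 change on BRZ minus mock in arf2 (horizontal) and in Col (vertical) for the 314 probe sets called in arf2 with at least a 2-fold change. Orange points have an interaction with an adjusted p under 0.05, grey points do not, and the dashed line marks equal change. Most rises lie near the line, while 69 of the 207 falls are orange, many of them near 0 in Col.

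Among the 15 named rises, 12 were called higher in Col and 5 had a called interaction. AT5G57785 rose by 2.67 in arf2 and by 0.97 in Col (interaction 1.70 ± 0.15, adjusted p 0.000377). AT5G10770 rose in arf2 to 122 and 120 on BRZ, against 45.8, 35.5 and 29.9 on mock. In Col it averaged 108 on BRZ and 107 on mock (interaction 1.71 ± 0.22, adjusted p 0.00444). Among the 15 named falls, 7 were called lower in Col and 8 had a called interaction. As geometric means, AT2G16630 averaged 96.7 on BRZ and 624 on mock in arf2, and 115 on BRZ and 107 on mock in Col (interaction -2.79 ± 0.20, adjusted p 8.25e-05). AT3G13610 averaged 77.1 on BRZ and 498 on mock in arf2, and 80.9 on BRZ and 48.3 on mock in Col (interaction -3.44 ± 0.41, adjusted p 0.00307). The peroxidase AT5G39580 averaged 287 on BRZ and 926 on mock in arf2, and 352 on BRZ and 368 on mock in Col (interaction -1.62 ± 0.21, adjusted p 0.00436). In these 3 genes arf2 on mock was the highest of the 4 groups. In contrast AT1G75900 (interaction -0.09 ± 0.17, adjusted p 0.921) and CP1 (0.18 ± 0.21, adjusted p 0.868) fell in both, with no difference found between the effects.

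**Figure D4:**
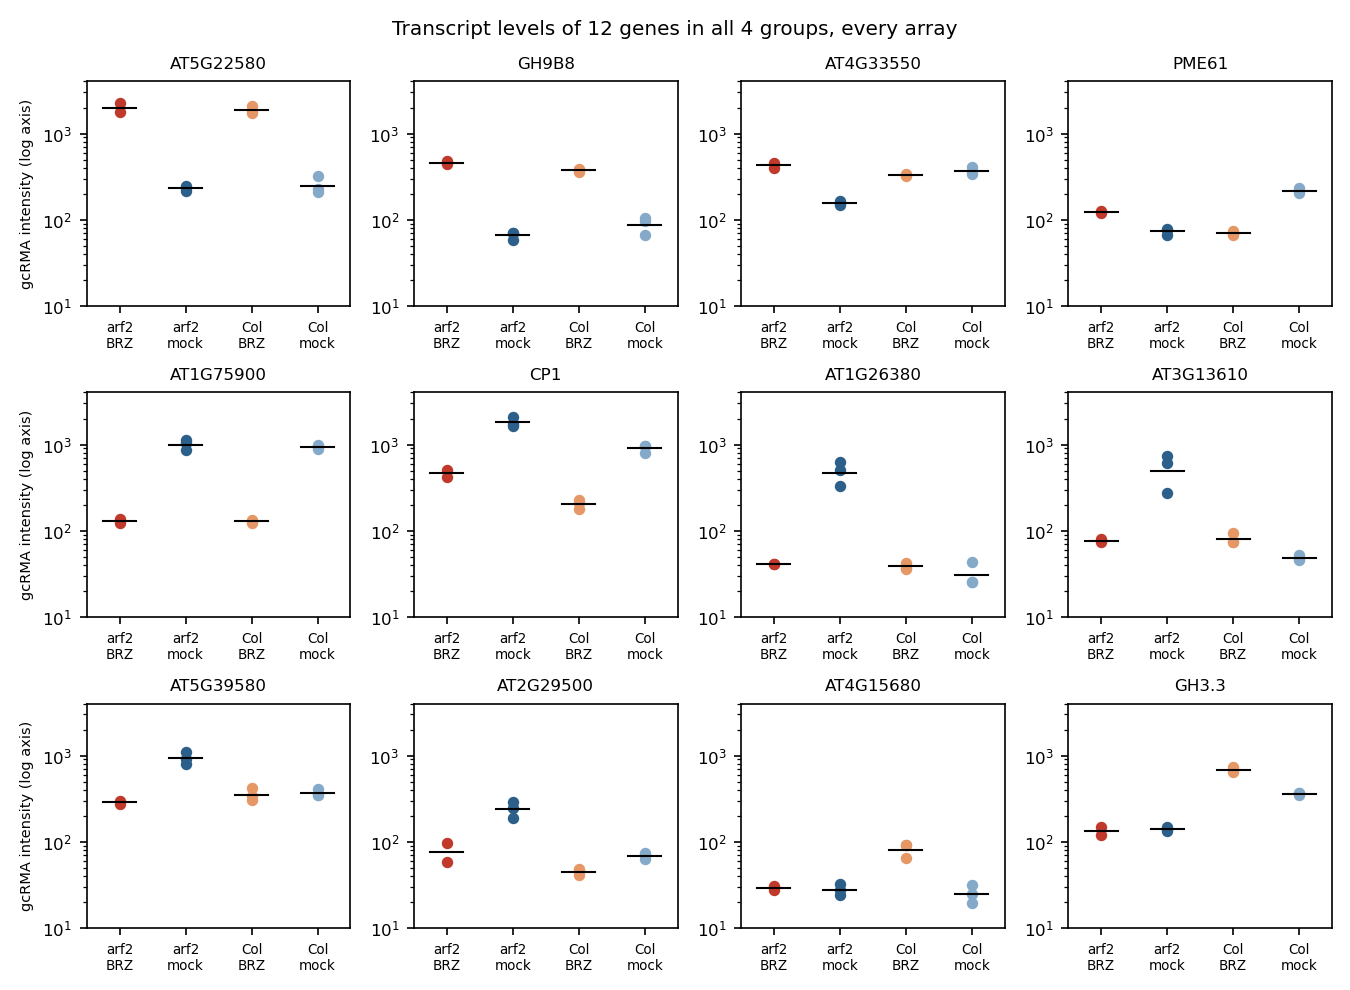
gcRMA intensity (log axis) of 12 genes on every array of arf2 on BRZ, arf2 on mock, Col on BRZ and Col on mock, with a bar at the geometric mean. AT5G22580, GH9B8, AT1G75900 and CP1 changed the same way in both genotypes, while AT1G26380, AT3G13610 and AT5G39580 are high in arf2 on mock only. PME61 ran in opposite directions, and GH3.3 and AT4G15680 were called in Col and not in arf2.

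For 16 probe sets the 2 genotypes were called in opposite directions, and the interaction was called for all 16. Of these, 8 name 1 gene, and they are listed after their values were seen: PME61, described above, AT2G44370, AT1G12010, MTP11, AT1G10340, AT1G19380, AT2G44940 and AT5G06570. AT1G12010 read 202 and 199 on BRZ, against 431, 421 and 333 on mock in arf2 (-0.97 ± 0.14, adjusted p 0.00164), while Col rose by 0.45 (interaction -1.42 ± 0.19, adjusted p 0.0047). MTP11, a manganese transporter of the cation diffusion family, read 527 and 438 on BRZ, against 329, 327 and 253 on mock in arf2 (0.68 ± 0.18, adjusted p 0.0459), while Col fell by 0.62. The arf2 calls of PME61 and AT1G12010 held in all 22 alternatives that kept the threshold. Both changes were below 2-fold, a rise of 1.68-fold for PME61 and a fall of 1.96-fold for AT1G12010. The other 6 were each lost in 5 to 12 of the 22 alternatives, with the highest adjusted p (0.172 to 0.348) always without arf2 BRZ array 1 or 2.

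Other groups had calls in Col and none in arf2, where 5.81% of all probe sets were called. Of 16 measured CC-type glutaredoxins, small thiol proteins, 6 rose in Col (37.5%, against 6.2% of all probe sets) and none passed in arf2 (median 0.04 in arf2 and 0.14 in Col). AT4G15680 read 27.5 and 30.7 on BRZ, against 32.5, 27.4 and 24.2 on mock in arf2, and averaged 81.1 on BRZ and 24.8 on mock in Col (interaction -1.65 ± 0.28, adjusted p 0.0184). That interaction was lost without arf2 BRZ array 1 or 2, arf2 mock array 1 or Col BRZ array 1 or 3 (adjusted p 0.0526 to 0.132). It was the only called interaction of the 16, so a difference between the genotypes was not shown for the other members. The same holds for the chloroplast-encoded transcripts, of which 8 of 69 rose in Col (11.6%, against 6.2% of all probe sets) and none had a called interaction.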

How the data were processed

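Transcripts of whole seedlings were measured on 11 Affymetrix ATH1 arrays. Per the series' design text, the authors normalized them with gcRMA and checked quality with simpleaffy, with versions not given in the sources used here. The deposited values are linear intensities for 22810 probe sets, and log2 was taken of them. After 64 control probe sets were left out, 860 probe sets were dropped for having fewer than 2 arrays above 4 on the log2 scale. limma 3.58.1 in R 4.3.3 fitted 1 mean per group over all 11 arrays, with 7 residual degrees of freedom, followed by eBayes and Benjamini-Hochberg adjustment over the 21886 probe sets left. Figures were drawn with matplotlib 3.10.9. The same code was tested on simulated data. That simulation drew independent noise for each array, so it cannot speak to deviations shared between arrays or to repeated values. The number of arrays limits the precision: the median SE of the arf2 change was 0.135 on the log2 scale. The interaction contrast subtracted the effect of Col from that of arf2. For CCOAMT, UGT84A3, UGT73B1, AT5G37670, PDF1.4 and OLEO3 the interaction is given from the main fit only.

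Genes were named by a rule: the 15 largest rises and 15 largest falls among called probe sets that name 1 gene, have 1 group entirely above 4 (log2) and show no overlap of groups, then up to 4 called members of each gene list by adjusted p. For a gene with several probe sets a single one was used. The members and lists were chosen with earlier results of these data known. Lists of peroxidases, berberine bridge enzymes, small heat shock proteins, lipid transfer proteins, invertase or pectin methylesterase inhibitors, GDSL lipases and glutaredoxins were set up after the values had been seen. Their locus-only members rest on background knowledge of the families. After the values were seen, 7 members matched by mistake were removed from other lists. Symbols come from the platform annotation and a RefSeq gene table, and promoter motifs were not analysed here. Alternatives changed the filter, scaling, variance model, weights, block, probe sets, threshold and arrays.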

Additional observations from a re-analysis of the deposited data

Results flagged for a closer look

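For 13 of the 30 genes with the largest change in arf2, the BRZ effect differed between arf2 and Col by the interaction test (limma, Benjamini-Hochberg adjusted). Each value is the log2 effect of arf2 less that of Col. Among the rises it was 1.03 for AT5G01740, 1.70 for AT5G57785, 1.71 for AT5G10770, 1.25 for AT3G29410 and 1.0 for P1R1. Among the falls it was -3.84 for AT1G26380, -2.78 for AT1G26390, -3.44 for AT3G13610, -2.79 for AT2G16630, -2.48 for AT2G34930, -2.71 for AT3G16530, -2.37 for AT1G14550 and -1.35 for AT1G20070. All 13 were larger in size in arf2, the genotype on which the genes were chosen.

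The interaction of 5 of the 13 kept its call in every alternative: AT5G57785, AT5G10770, AT1G26380, AT3G13610 and AT2G16630. The other 8 lost it without arf2 BRZ array 1, with an adjusted p of 0.267 for AT5G01740, 0.119 for AT3G29410, 0.141 for P1R1, 0.06 for AT1G26390, 0.0712 for AT2G34930, 0.0566 for AT3G16530, 0.13 for AT1G14550 and 0.173 for AT1G20070.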

How the results depend on the processing

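No call of a named gene was reversed in direction under the alternatives run, but the balance of higher and lower calls did turn. The 1271 calls in arf2 (638 higher, 633 lower) became 2693 (1424 and 1269) under array weights, 783 (367 and 416) under the replicate block, 556 (245 and 311) at an adjusted p under 0.01 and 314 (107 and 207) at 2-fold or more. Leaving out 1 array gave 503 to 1827 in all, 213 to 986 higher and 290 to 841 lower. Quantile normalization gave 699 higher and 771 lower, and leaving out Col mock array 2 gave 986 and 841. Equal array medians gave 476 and 886 (34.9% higher, against 50.2%). With both Col mock array 2 and array 3 of arf2 mock left out, chosen after seeing the data, 725 were higher and 804 lower. Members called in the first gene lists were 21 higher and 22 lower. Their share of the measured members was not counted, so these numbers show only how the calls shift. Higher members numbered 9 at an adjusted p under 0.01, 4 at 2-fold and 7 to 24 with 1 array left out. Lower members numbered 12 with the replicate block, 11 at an adjusted p under 0.01, 9 at 2-fold and 11 to 25 with 1 array left out. The 184 interactions became 301 under array weights, 84 under the replicate block, 73 at an adjusted p under 0.01 and 62 to 344 with 1 array left out. The 1956 calls in Col became 771 at an adjusted p under 0.01, 243 at 2-fold and 936 to 5084 with 1 array left out. The cause of these shifts was not tested. Same-numbered arf2 arrays had deviations correlated at -0.12 (array 1) and -0.02 (array 2), so the numbers were not shown to pair them. The replicate block also ended the arf2 calls of TUB5, CYP71B6, GSTU18, LEA, LTI30, GTR2, AT1G53540, WRKY6 and WRKY53 (adjusted p 0.0522 to 0.124) and the interaction of AT4G15680 (adjusted p 0.0785). Of 2510 values for the named genes over the alternatives, 2313 kept their side of the threshold, 172 lost it, 25 gained it and none reversed. Weak signals limit the size of falls that end near the lower quartile of the arrays.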

Other observations

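Other genes with changes of at least 2-fold in arf2, chosen after their values were seen, add to the groups above, and the arf2 calls of those given here held in all alternatives. LEP, an AP2/ERF transcription factor, read 214 and 164 on BRZ, against 64.8, 73.8 and 67.7 on mock (log2 change 1.45 ± 0.14, limma adjusted p 7.95e-05), and it rose in Col by 1.33. TIL, a lipocalin that protects membranes under temperature stress, read 1492 and 1826 on BRZ, against 4800, 3673 and 4225 on mock (-1.35 ± 0.12, adjusted p 7.45e-05). SUFE2, which acts in the assembly of iron-sulfur clusters, read 490 and 534 on BRZ, against 1842, 1368 and 1629 on mock (-1.65 ± 0.14, adjusted p 4.81e-05). PUB23, a ubiquitin ligase of drought and defence responses, read 82.3 on both BRZ arrays, against 209, 190 and 181 on mock (-1.23 ± 0.14, adjusted p 0.000261). That fold rests on a value repeated on both BRZ arrays, while all 3 Col BRZ arrays read lower, at 65.2 to 75.6. TBL37, of a family that acetylates wall polymers, fell by 1.49 ± 0.14 in arf2 (adjusted p 6.74e-05), beside a change of -1.498 in Col.

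Of 5504 pairs of neighbouring genes with both measured, 20 had both called in arf2: 4 both higher, 8 both lower and 8 in opposite directions. Over all probe sets 5.81% were called. Whether neighbours were called together more often than that share alone would give was not tested, so the pairs are only a description. AT2G23110 and AT2G23120 fell together (-1.37 and -1.68). AT5G62340 rose by 2.35 while its neighbour AT5G62350 fell by 0.45.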
